A study of Mus musculus with 10 samples.

Results

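The 3 COUP-TF nuclear receptors of the mouse, Nr2f1 (COUP-TFI), Nr2f2 (COUP-TFII) and Nr2f6 (EAR2), were examined in ribosome-bound RNA from the hippocampus. They are 3 of the 54838 Ensembl gene identifiers that were counted, found by their GRCm38 symbols, and they were chosen on the difference between dorsal and ventral libraries of these same data. Their dorsal and ventral levels and the ratios between them are therefore given as a description, without a test. All 3 had counts in every library, and all 3 passed the filter on low counts, Nr2f6 through Ventral replicates 4 and 5 alone. The filter asked for a CPM above 1, on library totals before scaling, in no fewer than 2 libraries. Every CPM given below is the count relative to the TMM-scaled total of its library.

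The libraries came from MC-TRAP (Drd2-Cre;Eef1a1LSL.eGFPL10a/+) mice on the C57BL/6 background, males of about 10 weeks, in which Cre driven by Drd2 switches on an EGFP-tagged ribosomal protein L10a. Translating ribosome affinity purification (TRAP) pulls down the tagged ribosomes with the RNA bound to them. There were 5 Dorsal and 5 Ventral libraries, each from the pooled tissue of 5 mice, and both groups carried the same 2 transgenes with no further treatment. By the paper's methods the hippocampi were each divided into a dorsal and a ventral part, so both groups drew on the same animals. The dorsal part was the shorter, dorsal segment of the stretched hippocampus and the ventral part was all of the remainder, from which the region of the ventral subiculum had been trimmed away. As a model of mossy cells (MCs), the large glutamatergic neurons of the dentate hilus, the mice are limited by the promoter, because Drd2-Cre also marks some hippocampal interneurons and other Drd2-expressing cells.

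COUP-TFs are orphan nuclear receptors: they bind repeats of the AGGTCA motif as dimers, mostly repress transcription, and need no known ligand in the cell. In the developing forebrain Nr2f1 patterns the cortex and the hippocampus, Nr2f2 is expressed in the caudal ganglionic eminence and in the interneurons born there, and Nr2f2 also specifies veins. Nr2f6 is the more distant relative and is best known from lymphocytes, where it restrains cytokine genes.

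Nr2f1 (ENSMUSG00000069171) lies on the minus strand at chr13:78188973-78199757 of GRCm38, Nr2f2 (ENSMUSG00000030551) on the minus strand at chr7:70351944-70366735 and Nr2f6 (ENSMUSG00000002393) on the minus strand at chr8:71374123-71381960. Nr2f1 and Nr2f2 each have 6 annotated transcripts and Nr2f6 has 8, and the counts do not separate them. The annotated coding sequence compared here holds 1263 bases in Nr2f1, 1245 in Nr2f2 and 1173 in Nr2f6. Nr2f1 and Nr2f2 are 83.3% identical over their aligned coding bases, Nr2f1 and Nr2f6 73.6%, and Nr2f2 and Nr2f6 71.2%. The longest coding stretch that Nr2f1 and Nr2f2 share without a difference is 59 bases, against 23 for either of them with Nr2f6.

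That stretch and the bases after it, 150 in all, are printed here because they show how close the paralogs are where they are most alike, and so how far 50-base reads can tell them apart. The sequences are read 5′ to 3′ on the minus strand from the GENCODE transcripts of GRCm38, are coding exon throughout, and carry in capitals each base that differs from Nr2f1. That of Nr2f1 is at chr13:78198193-78198342, that of Nr2f2 is at chr7:70359961-70360110, and that of Nr2f6 is split by an intron between its ends at chr8:71378462-71381118. Nr2f2 differs from Nr2f1 at 15 of the 150 bases, all after the shared 59, and Nr2f6 at 35.
Nr2f1: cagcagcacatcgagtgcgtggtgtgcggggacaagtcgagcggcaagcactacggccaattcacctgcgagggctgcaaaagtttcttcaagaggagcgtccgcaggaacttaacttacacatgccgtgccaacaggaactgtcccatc
Nr2f2: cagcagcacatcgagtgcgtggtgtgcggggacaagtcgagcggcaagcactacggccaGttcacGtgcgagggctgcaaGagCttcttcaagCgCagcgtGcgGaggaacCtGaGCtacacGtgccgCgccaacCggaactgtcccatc
Nr2f6: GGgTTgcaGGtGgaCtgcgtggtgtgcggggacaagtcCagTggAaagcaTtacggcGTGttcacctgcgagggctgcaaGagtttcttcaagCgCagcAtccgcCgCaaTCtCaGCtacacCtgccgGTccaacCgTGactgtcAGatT

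**Figure D1:**
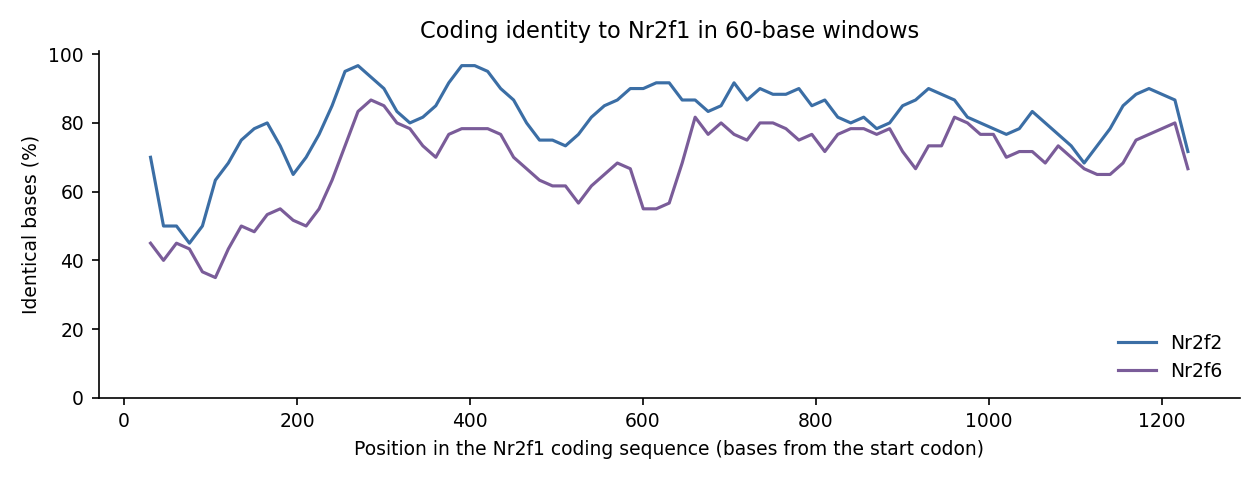
Identical bases (percent) between the coding sequence of Nr2f1 and those of Nr2f2 and Nr2f6, in windows of 60 bases along Nr2f1, with gaps counted as differences. Identity to Nr2f2 reaches 96.7% and identity to Nr2f6 86.7%, and both are lowest near the start codon.

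Of all runs of 50 bases in their transcripts, Nr2f1 and Nr2f2 have 10 in common, all within the shared 59 bases, and Nr2f6 has none in common with either. Of those of Nr2f2, 27 also occur in transcripts of genes that are neither Nr2f1 nor its antisense gene. Exons shared with genes on the opposite strand take up more of the members. Nr2f1 shares 2.42% of its exonic bases (123 bases) with A830082K12Rik, Nr2f2 7.46% (643 bases) with B130024G19Rik, and Nr2f6 54.4% (1622 bases) with Ocel1. The library kits do not keep the strand, so read pairs on shared bases cannot be assigned to one gene or the other, and the level of Nr2f6 is uncertain for that reason.

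Nr2f1, the COUP-TF that patterns cortex and hippocampus, was higher in every Ventral library than in any Dorsal library. Its CPM in Dorsal replicates 1 to 5 was 151, 105, 115, 150.3 and 138, from 1607 to 2503 counts. In Ventral replicates 1 to 5 it was 349, 232, 253, 213 and 184, from 2635 to 6291 counts. The groups did not overlap, and Ventral replicate 1 stood highest. The means were 132 ± 21.0 (SD, n = 5) and 246 ± 62.9 (SD, n = 5) CPM, 1.86 times as much in ventral libraries, and the log2 fold change of the edgeR fit, dorsal over ventral, was -0.90 (SE 0.165).

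Nr2f2, the COUP-TF of caudal interneurons and veins, had the larger difference of the 2 abundant members. The paper names Nr2f2 among the ventral-enriched genes of its own edgeR comparison of these libraries. As a cross-check it reports higher expression in the ventral hilus, judged by eye on public atlas images of RNA in tissue sections. The CPM and counts of Nr2f2 that follow come from the same libraries as the paper's comparison. The CPM of Nr2f2 in Dorsal replicates 1 to 5 was 164, 113, 118, 156 and 151, from 1730 to 2602 counts. In Ventral replicates 1 to 5 it was 415, 324, 317, 306 and 266, from 3685 to 7488 counts. The lowest Ventral library lay well above the highest Dorsal one, and the same Ventral replicate 1 was again the highest. The means were 141 ± 23.5 (SD, n = 5) and 326 ± 54.9 (SD, n = 5) CPM, 2.32 times as much in ventral libraries, with a log2 fold change of -1.22 (SE 0.140).

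Nr2f6 was scarcely counted. Dorsal replicates 1 to 5 held 6, 10, 6, 8 and 4 counts, or 0.564, 0.650, 0.409, 0.480 and 0.314 CPM. Ventral replicates 1 to 5 held 14, 10, 6, 21 and 46 counts, or 0.777, 0.880, 0.507, 1.33 and 2.17 CPM. The groups overlapped, and the ventral mean leaned on replicate 5. The means were 0.484 ± 0.131 (SD, n = 5) and 1.13 ± 0.652 (SD, n = 5) CPM, with a log2 fold change of -1.33 (SE 0.483), the largest of the 3 in size and the least precise. At these depths 3 counts, the limit that a count of 0 would allow, equal 0.146 to 0.269 CPM, so every library was above that limit, which covers counting error only.

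**Figure D2:**
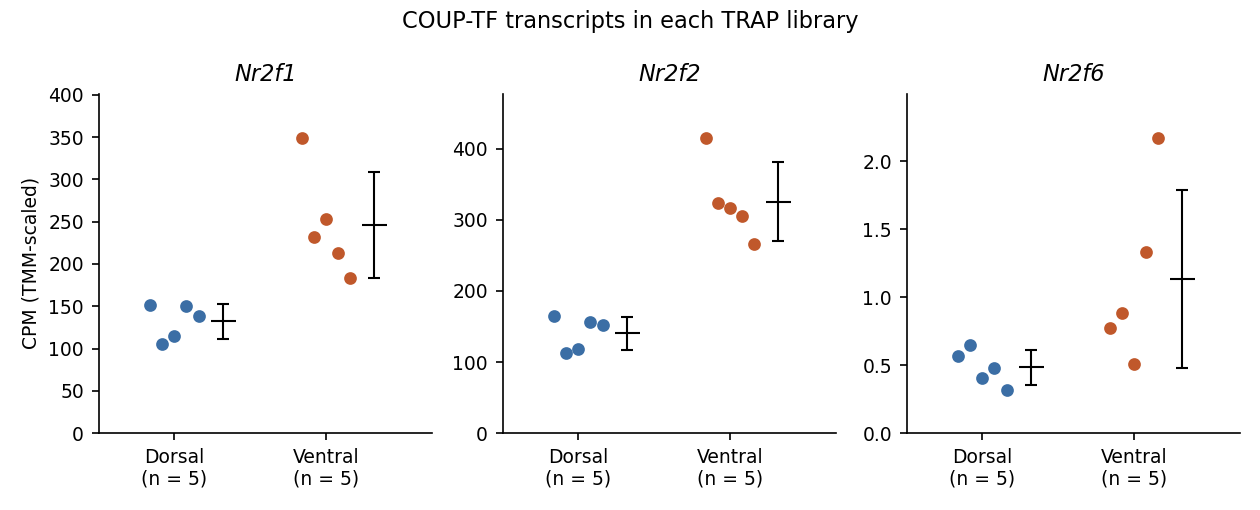
CPM of Nr2f1, Nr2f2 and Nr2f6 in each Dorsal (blue) and Ventral (orange) library, each panel with its own linear axis from 0, with the mean and SD (bars) beside the 5 points. All Ventral points lie above all Dorsal points for Nr2f1 and Nr2f2, and the groups overlap for Nr2f6, whose Ventral libraries run from 0.507 to 2.17 CPM.

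Of the 16806 genes tested with edgeR's quasi-likelihood test, 9.85% were called ventral-higher and 15.7% dorsal-higher (a Benjamini-Hochberg adjusted p under 0.05, and mean CPM plus 1 differing by more than 0.58 on the log2 scale). In 8.36% of genes every Ventral library was above every Dorsal one, and in 9.81% the reverse held. Nr2f1 and Nr2f2 were among the genes called ventral-higher with groups that did not overlap, and Nr2f6 was neither, its mean CPM plus 1 differing by -0.52 on that scale. Since the members were chosen on this contrast, nothing is read from these calls. By mean CPM Nr2f2 ranked 846 and Nr2f1 1115 among the tested genes, while Nr2f6 ranked 15352. By fold change toward the ventral side Nr2f2 ranked 931, Nr2f1 1471 and Nr2f6 795. Ranks by CPM are not corrected for gene length. In pooled tissue of this kind, fewer cells of a type and less RNA per cell cannot be told apart.

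Between members, levels were compared per kilobase of exon, with the union of all exons as the length (5093 bases for Nr2f1, 8625 for Nr2f2 and 2983 for Nr2f6). On this scale Nr2f1 was the most abundant, with 25.9 ± 4.12 CPM per kilobase in dorsal libraries (SD, n = 5) and 48.3 ± 12.4 in the ventral ones (SD, n = 5). Nr2f2 followed with 16.3 ± 2.73 and 37.8 ± 6.37, and Nr2f6 was at 0.162 ± 0.0438 and 0.380 ± 0.219. In dorsal tissue the lowest Nr2f1 level (20.6) was above the highest Nr2f2 level (19.1), whereas in ventral tissue the ranges of Nr2f1 (36.0 to 68.5) and Nr2f2 (30.9 to 48.2) overlapped. The order of these neighbours also rested on the length. Per kilobase of coding exon Nr2f2 was the higher, at 109 against 104 in dorsal and 254 against 193 in ventral libraries. Nr2f6 was far below both by any length used.

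The ratio of Nr2f2 to Nr2f1 within a library does not depend on how libraries are scaled to each other. Per kilobase of exon it was 0.642, 0.635, 0.605, 0.614 and 0.646 in Dorsal replicates 1 to 5. In Ventral replicates 1 to 5 it was 0.703, 0.826, 0.742, 0.847 and 0.856. Both paralogs were therefore higher in ventral libraries, but not in the same proportion, and the groups did not overlap. The mean ratio was 0.629 ± 0.0181 (SD, n = 5) on the dorsal side and 0.795 ± 0.0684 (SD, n = 5) on the ventral side, a mean log2 difference of -0.33, and it stayed between -0.38 and -0.31 when any 1 library was left out. Counted without a length, there were 1.06 ± 0.0306 Nr2f2 reads for each Nr2f1 read in dorsal and 1.35 ± 0.116 in ventral libraries.

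Of the summed COUP-TF level per kilobase, Nr2f1 made up 61.2 ± 0.687% in dorsal and 55.5 ± 2.31% in ventral libraries. Nr2f2 made up 38.4 ± 0.684% and 44.0 ± 2.03%, and Nr2f6 0.395 ± 0.150% and 0.484 ± 0.363% (SD, n = 5 throughout). The sum itself was 42.4 ± 6.81 CPM per kilobase in dorsal and 86.5 ± 18.5 in ventral libraries, so the total was higher on the ventral side and its makeup shifted toward Nr2f2. Nr2f1 and Nr2f2 differ in base composition, with 60.2% and 45.3% GC in their longest transcripts. Corrected for GC content and length, Nr2f1 had a log2 fold change of -0.79 and Nr2f2 one of -1.35, farther apart than without the correction. The ratio of Nr2f6 to Nr2f1 differed between groups by a log2 of -0.21, which turned to 0.16 without Ventral replicate 5.

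Within the groups, Nr2f1 and Nr2f2 went up and down together from library to library. The deviations of their log2 CPM from the group means had a Pearson r of 0.96 and a Spearman rho of 0.98 over 10 libraries, and r was 0.94 without the 2 libraries farthest from the median of Nr2f1. Ventral replicate 1 was the highest for both (0.54 for Nr2f1 and 0.37 for Nr2f2 on the log2 scale). The lowest were Ventral replicate 5 for Nr2f1 (-0.39, with -0.28 for Nr2f2) and Dorsal replicate 2 for Nr2f2 (-0.30, with -0.31 for Nr2f1). Nr2f6 did not go with them (r = -0.57 with Nr2f1 and -0.45 with Nr2f2), and with so few counts a correlation of this size is no finding. The points of these correlations share a library and its depth, and they are given as a description.

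**Figure D3:**
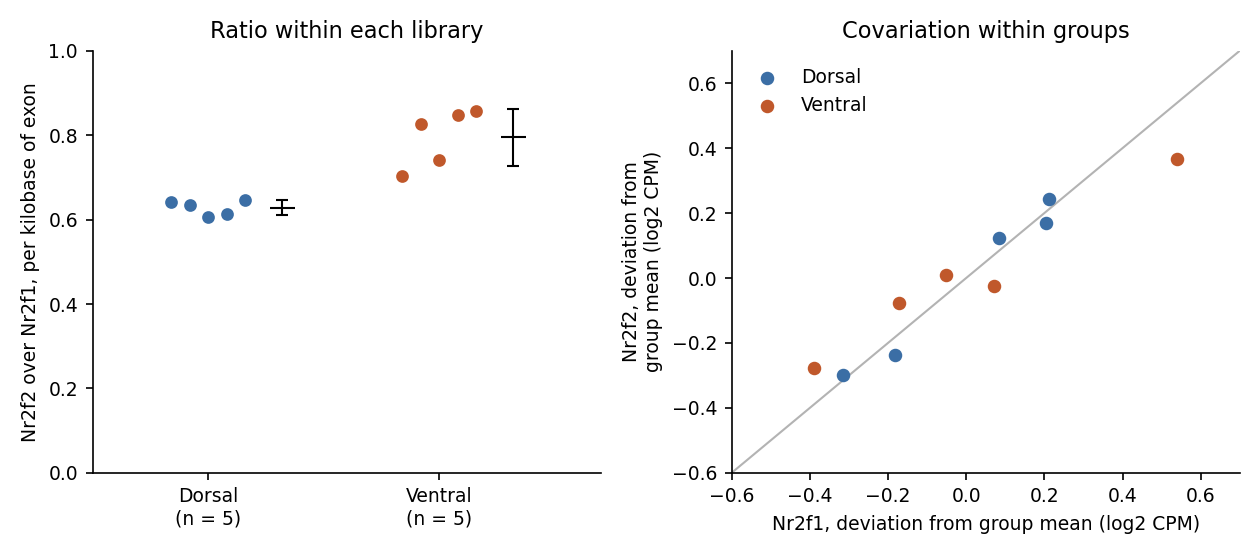
Left, the ratio of Nr2f2 to Nr2f1 per kilobase of exon in each Dorsal (blue) and Ventral (orange) library, with mean and SD beside the points. Right, the deviation of each library from its group mean (log2 CPM) for Nr2f1 and Nr2f2, with the line of equal deviation. The Dorsal ratios lie between 0.605 and 0.646 and the Ventral ones between 0.703 and 0.856, and the 10 libraries follow the line with r = 0.96.

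The genes whose pattern was most like each member were taken from the other tested genes with a mean CPM of at least 10, 8761 for Nr2f1 and Nr2f2. Over all 10 libraries, the highest correlations of log2(CPM + 1) with Nr2f1 were those of Slc25a4 (r = 0.98), the mitochondrial ADP/ATP carrier, and of Gnl3l, Atp6v1a, Oxr1 and Nr2f2 itself (r = 0.97), which was the fifth. With Nr2f2 they were those of Atp6v1e1, Cited2, Hdac9, Gnl3l and Slc17a6, the vesicular glutamate transporter VGLUT2 (0.98 for each of the 5). The mean of Slc17a6 was 11.5 CPM on the dorsal side and 29.8 CPM on the ventral side.

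With the group means removed, other genes came first. For Nr2f1 they were Sdcbp (r = 0.97), Rabgap1l, Nr2f2, Zfand5 and Dr1 (r = 0.94). For Nr2f2 they were Synpr (r = 0.97), Rabgap1l, Nr2f1, Zxdb and Bmt2 (r = 0.95). Each of the pair was thus the third for the other, with Rabgap1l just before it in both cases. For Nr2f6 the highest were Pam16 and Ndufb9 over all libraries (r = 0.91), followed by Tprgl, Ubl5 and Iscu, and Eef1g (r = 0.94), Tprgl, Cyc1, Pi4ka and Ndufb9 within groups. These genes were picked for their r, which is therefore a description, and its 10 points share library and depth.

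The labelled cell type was checked on markers. The summed level of the mossy cell list (Drd2, Calb2, Calcrl, Satb1, Gria2, Gria3, Ajap1 and Slc17a7) ran from 1959 to 2158 CPM on the dorsal side and from 1972 to 2275 CPM on the ventral side, and none of the 8 was at 0 in any library. Gria2 and Gria3, which encode AMPA receptor subunits, and Ajap1 were called dorsal-higher, as were 15.7% of all tested genes. Calb2 (calretinin), 65.2 ± 9.32 against 616 ± 94.6 CPM, and Satb1 were called ventral-higher, as were 9.85% of all tested genes. Interneuron genes were present as well, and Gad2 alone was above the sum of the mossy cell list in every library, without correction for gene length. Gad2, which makes GABA, stood at 2853 ± 453 CPM (SD, n = 5) in dorsal against 3174 ± 407 CPM (SD, n = 5) in ventral libraries, and Gad1 at 257 ± 43.8 against 355 ± 35.4. In the order dorsal, then ventral, pairs of means below carry the SD over 5 libraries each.

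For the COUP-TFs the relevant list is that of interneurons from the caudal ganglionic eminence, which normally carry Nr2f2. All 12 of its genes were tested, 11 had a negative log2 fold change, and the median of the list was -0.46 beside -0.0044 for all tested genes. The gene that went the other way was Sp8 (16.2 ± 5.19 and 9.49 ± 10.2 CPM, log2 fold change 0.94), not past the test. Those called ventral-higher, as were 9.85% of all tested genes, were Htr3a, a serotonin receptor channel, and Npas1, a transcription factor. Htr3a went from 6.05 ± 1.92 to 16.1 ± 2.02 CPM and Npas1 from 7.45 ± 2.98 to 17.5 ± 3.83 CPM. Reln, Cck, Gad1, Cnr1 and Adarb2 were also higher on the ventral side (edgeR with Benjamini-Hochberg adjusted p under 0.05), but under the fold threshold. The summed level was 3569 to 5046 CPM in dorsal libraries against 4506 to 5665 CPM, so the ranges overlapped. Within the groups this sum had r = 0.73 with Nr2f1 and 0.84 with Nr2f2 over 10 libraries (Spearman 0.77 and 0.85), and 0.61 and 0.75 without the 2 libraries farthest from its median. Gad2 alone had 0.72 and 0.82. Sums of other lists also varied with the members. That of granule cells had r = 0.60 with Nr2f1 and 0.52 with Nr2f2, and without the 2 libraries farthest from its own median these were 0.76 and 0.77. That of oligodendrocyte precursors had -0.44 and -0.58, that of mossy cells 0.40 and 0.32, and that of astrocytes -0.21 and -0.26, which became -0.70 and -0.77 without its 2 farthest libraries. Endothelium had -0.18 and -0.33, mural cells and fibroblasts -0.15 and -0.30, and CA1 and subiculum 0.08 and -0.05. Without the 2 farthest libraries of each list, mural cells and fibroblasts had 0.26 and 0.24, and CA1 and subiculum 0.38 and 0.37. Endothelium then had -0.21 and -0.29, oligodendrocyte precursors -0.32 and -0.36, and mossy cells 0.44 and 0.43. No difference between these correlations was tested.

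Most of the interneuron sum is Gad2, which marks GABAergic neurons in general and had a log2 fold change of -0.15, so levels relative to the sum are mainly levels relative to Gad2. Set against it in the same library, Nr2f1 came to 3.11 ± 0.210% in dorsal and 4.86 ± 0.927% in ventral libraries, a log2 difference of -0.62. Nr2f2 came to 3.31 ± 0.205% and 6.46 ± 0.722%, a log2 difference of -0.96. These differences were smaller than those of the CPM, and the groups did not overlap for either gene. Relative to the mossy cell sum, the log2 differences were -0.83 for Nr2f1 and -1.16 for Nr2f2. That sum is not neutral to region, because its largest genes moved in opposite directions. Gria2, with the highest mean CPM on both sides, had 1143 CPM in dorsal and 651 in ventral libraries, while Calb2 had 65.2 and 616. The part that interneurons have in the levels of the members was not tested.

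**Figure D4:**
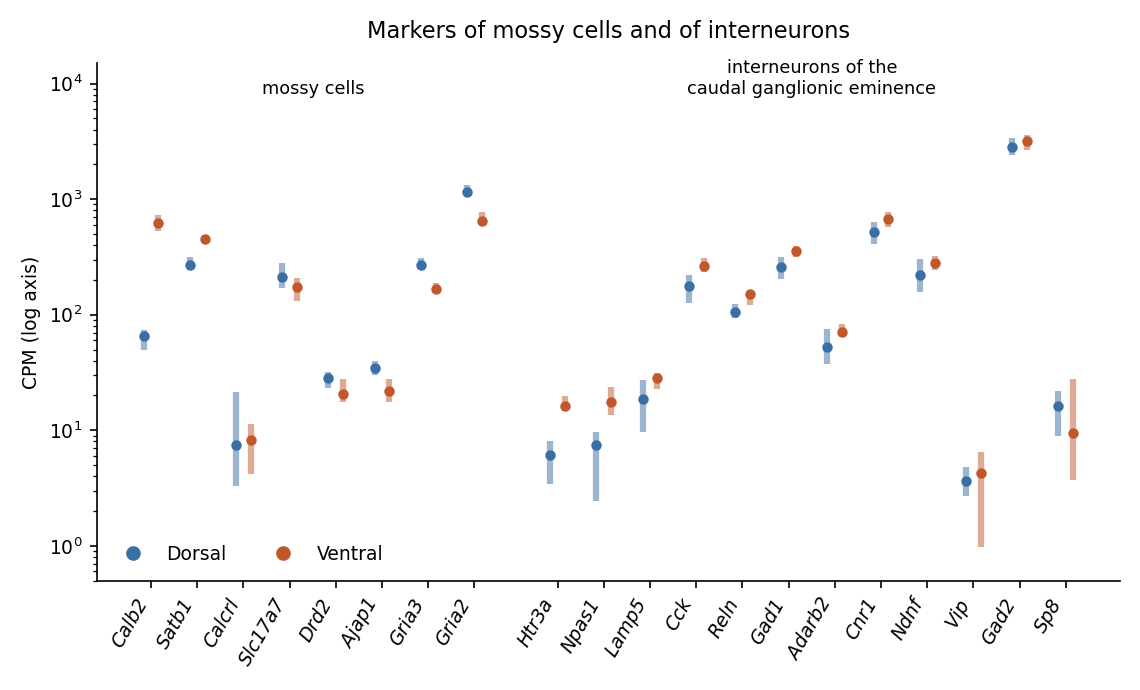
CPM on a log axis of the markers of mossy cells and of interneurons from the caudal ganglionic eminence, with the mean (point) and the range over 5 libraries (bar) in Dorsal (blue) and Ventral (orange) tissue. Calb2 is far higher in Ventral libraries (616 against 65.2 CPM on average), and Gad2 has the highest CPM in both groups.

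Other cell types were measured with lists of their own. Calls in them stand beside 15.7% dorsal-higher and 9.85% ventral-higher among all tested genes. The 9 endothelial genes, relevant because Nr2f2 marks veins, summed to 14.9 to 45.6 CPM on the dorsal side and 12.8 to 60.2 CPM on the ventral side. Their defining genes Pecam1, Cldn5 and Cdh5 had mean levels of 0.434 to 1.80 CPM, Cldn5 and Vwf were at 0 in 1 library each, and of 8 tested only Vwf was called, dorsal-higher. Of these 8, 6 had a negative log2 fold change, with a median of -0.60, among them Cdh5 (-1.29), Cldn5 (-1.18), Ly6c1 (-1.15) and Flt1 (-0.67), none of them past the test. The 8 genes of mural cells and fibroblasts summed to 102 to 151 and 118 to 134 CPM, most of it from Rgs5, and Dcn rose on the ventral side while Col1a1 and Col1a2 rose on the dorsal side. The 6 astrocyte genes summed to 278 to 362 and 241 to 393 CPM, with Aqp4, Gfap and Slc1a3 called dorsal-higher and Aldh1l1 ventral-higher. The 5 genes of oligodendrocyte precursors summed to 20.8 to 57.3 and 28.4 to 47.1 CPM, and none was called. The lists of CA1 and subiculum (244 to 334 and 300.4 to 420 CPM) and of granule cells (375 to 500 and 363 to 510 CPM) each had 1 gene called in each direction, Nts and Prox1 dorsal-higher, Mpped1 and Calb1 ventral-higher. The median log2 fold change was 0.67 for mural cells and fibroblasts, 0.61 for astrocytes, 0.22 for oligodendrocyte precursors, 0.08 for CA1 and subiculum and 0.09 for granule cells. The ranges of the 2 groups overlapped in all 6 of these lists, and their part in the levels of the members was not tested.

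Libraries also differed in measures outside the members. Counts on genes ran from 11138676 to 20594364. The share of read pairs in no gene was 21.8 to 33.9% in dorsal and 11.6 to 19.3% in ventral libraries, without overlap, and was highest in Dorsal replicate 3. Messenger RNA of the mitochondrial genome was at 2773 to 3524 CPM on the dorsal side and 447 to 1257 CPM on the ventral side, again without overlap. Without Dorsal replicate 3 the log2 fold changes were -0.85 for Nr2f1 and -1.15 for Nr2f2, and with any other library left out they ranged from -0.99 to -0.74 and from -1.28 to -1.11. Within groups the share of read pairs in no gene had r = -0.44 with Nr2f1 and -0.61 with Nr2f2. Its part in the members' difference cannot be told apart from the region, since the groups did not overlap in it.

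Among receptors of the same NR2 subfamily, 6 of 9 were expressed highly enough to test. Calls fell on 1 gene on each side, beside 15.7% dorsal-higher and 9.85% ventral-higher among all tested genes. Nr2c1 (TR2), an orphan repressor, rose on the dorsal side, from 2.27 ± 1.11 to 6.90 ± 0.832 CPM (log2 fold change 1.60, SE 0.300, edgeR with Benjamini-Hochberg adjusted p = 0.00162). Rxrg, one of the retinoid X receptors with which COUP-TFs can pair, rose on the ventral side, from 0.898 ± 0.757 to 3.02 ± 1.24 CPM (log2 fold change -1.71, edgeR with Benjamini-Hochberg adjusted p = 0.0177). That call was lost without Dorsal replicate 5 (-1.52, edgeR with Benjamini-Hochberg adjusted p = 0.0528), and without Dorsal replicate 2 the log2 fold change was -2.36 (edgeR with Benjamini-Hochberg adjusted p = 0.0037). Nr2c2, which had the highest CPM of the list, had 179 and 150.4 CPM in dorsal and ventral libraries, Rxra 21.4 and 28.1, Nr2e1 (TLX) 15.0 and 20.6, and Rxrb 11.0 and 14.2, none past the test. Hnf4g was at 0 in all libraries.

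Of 10 receptors that share binding motifs or partners with COUP-TFs, 9 were tested and 1 was called, ventral-higher, as were 9.85% of all tested genes. Esr1, the estrogen receptor, was at 4.58 ± 2.49 against 12.4 ± 10.2 CPM (log2 fold change -1.41, SE 0.505, edgeR with Benjamini-Hochberg adjusted p = 0.0444), and Ventral replicate 3 alone reached 30.1. The call was lost without any single one of Dorsal replicates 2, 3, 4 and 5 and Ventral replicates 3, 4 and 5, with log2 fold changes of -1.60 to -0.88 and edgeR Benjamini-Hochberg adjusted p up to 0.101. Thra, the thyroid hormone receptor alpha, was at 455 ± 45.6 and 522 ± 37.6 CPM, Thrb at 140 ± 22.7 and 152 ± 28.0, Nr3c1, the glucocorticoid receptor, at 79.4 ± 12.7 and 74.5 ± 4.79, and Rara, a retinoic acid receptor, at 25.3 ± 6.81 and 25.1 ± 7.24, none past the test. The median log2 fold change of the list was -0.0034.

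Of 13 cofactors, all tested, 2 were called, 1 on each side. Of all tested genes 15.7% were called dorsal-higher and 9.85% ventral-higher. Bcl11b (CTIP2), a COUP-TF-interacting repressor, rose on the dorsal side, from 243 ± 25.1 to 404 ± 25.4 CPM (log2 fold change 0.73, SE 0.0948, edgeR with Benjamini-Hochberg adjusted p = 0.000146). Sqstm1 (p62), an autophagy receptor that also binds Nr2f2, rose on the ventral side, from 643 ± 78.0 to 1949 ± 138 CPM (log2 fold change -1.60, SE 0.0972, edgeR with Benjamini-Hochberg adjusted p = 8.28e-07). The other partner of the CTIP pair, Bcl11a (CTIP1), was at 156 ± 14.8 and 146 ± 12.8 CPM. The corepressor Ncor1 was at 439 ± 47.0 and 372 ± 69.5 CPM, Hdac2 at 355 ± 59.6 and 354 ± 54.8, and the coactivator Ncoa1 at 216 ± 9.64 and 213 ± 24.8, none past the test.

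Of 15 genes reported elsewhere as regulated by COUP-TFs, 13 were tested and 2 were called, both dorsal-higher, which 15.7% of all tested genes were. They were Notch1, a receptor of the pathway that Nr2f2 represses in veins, from 1.89 ± 1.18 to 6.48 ± 3.62 CPM (edgeR with Benjamini-Hochberg adjusted p = 0.0107), and Prox1, a homeobox factor of granule cells and lymphatics, from 175 ± 47.5 to 289 ± 24.7 CPM (edgeR with Benjamini-Hochberg adjusted p = 0.00429). Nrp2, a semaphorin receptor, was at 87.5 ± 4.95 and 68.5 ± 2.44 CPM with groups that did not overlap, under the fold threshold. Eya1 was at 78.2 ± 13.5 and 104 ± 28.6 CPM, Nrp1 at 22.5 ± 4.80 and 17.8 ± 5.26, and Fabp7 at 20.2 ± 2.99 and 18.1 ± 6.24, none past the test. The median of the list was 0.17.

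Forebrain patterning factors, the setting in which Nr2f1 is best known, were a list chosen, like the others, with earlier results known. Of all tested genes, 15.7% were called dorsal-higher and 9.85% ventral-higher. Of 14 tested in this list, 8 were called, counting Bcl11b and Prox1 of the lists above again. Those that rose on the dorsal side were Zbtb20, a zinc finger repressor needed for hippocampal development (765 ± 176 to 1851 ± 88.7 CPM), Pax6 (3.59 ± 1.40 to 9.34 ± 3.61), Gli3 (6.00 ± 1.83 to 15.0 ± 5.72), Bcl11b and Prox1. Those that rose on the ventral side included Fezf2 (11.4 ± 1.58 to 24.5 ± 4.26 CPM) and Emx1 (1.13 ± 0.581 to 2.91 ± 1.29). The call of Emx1 was lost without any single one of Dorsal replicates 1, 3, 4 and 5 and Ventral replicates 3 and 4, with log2 fold changes of -1.39 to -1.08 and edgeR Benjamini-Hochberg adjusted p of 0.0567 to 0.0997. Of those not called, Tbr1 was at 100.4 ± 29.6 and 145 ± 25.4 CPM and Lhx2 at 51.8 ± 4.51 and 67.2 ± 8.79. Both passed the test (edgeR with Benjamini-Hochberg adjusted p = 0.0482 and 0.0295) but were under the fold threshold. Emx2, at 85.5 ± 23.7 and 72.1 ± 27.0, was not past the test. Fgf8 was at 0 in all libraries. The median of the list was 0.14, and members on both sides made it up.

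**Figure D5:**
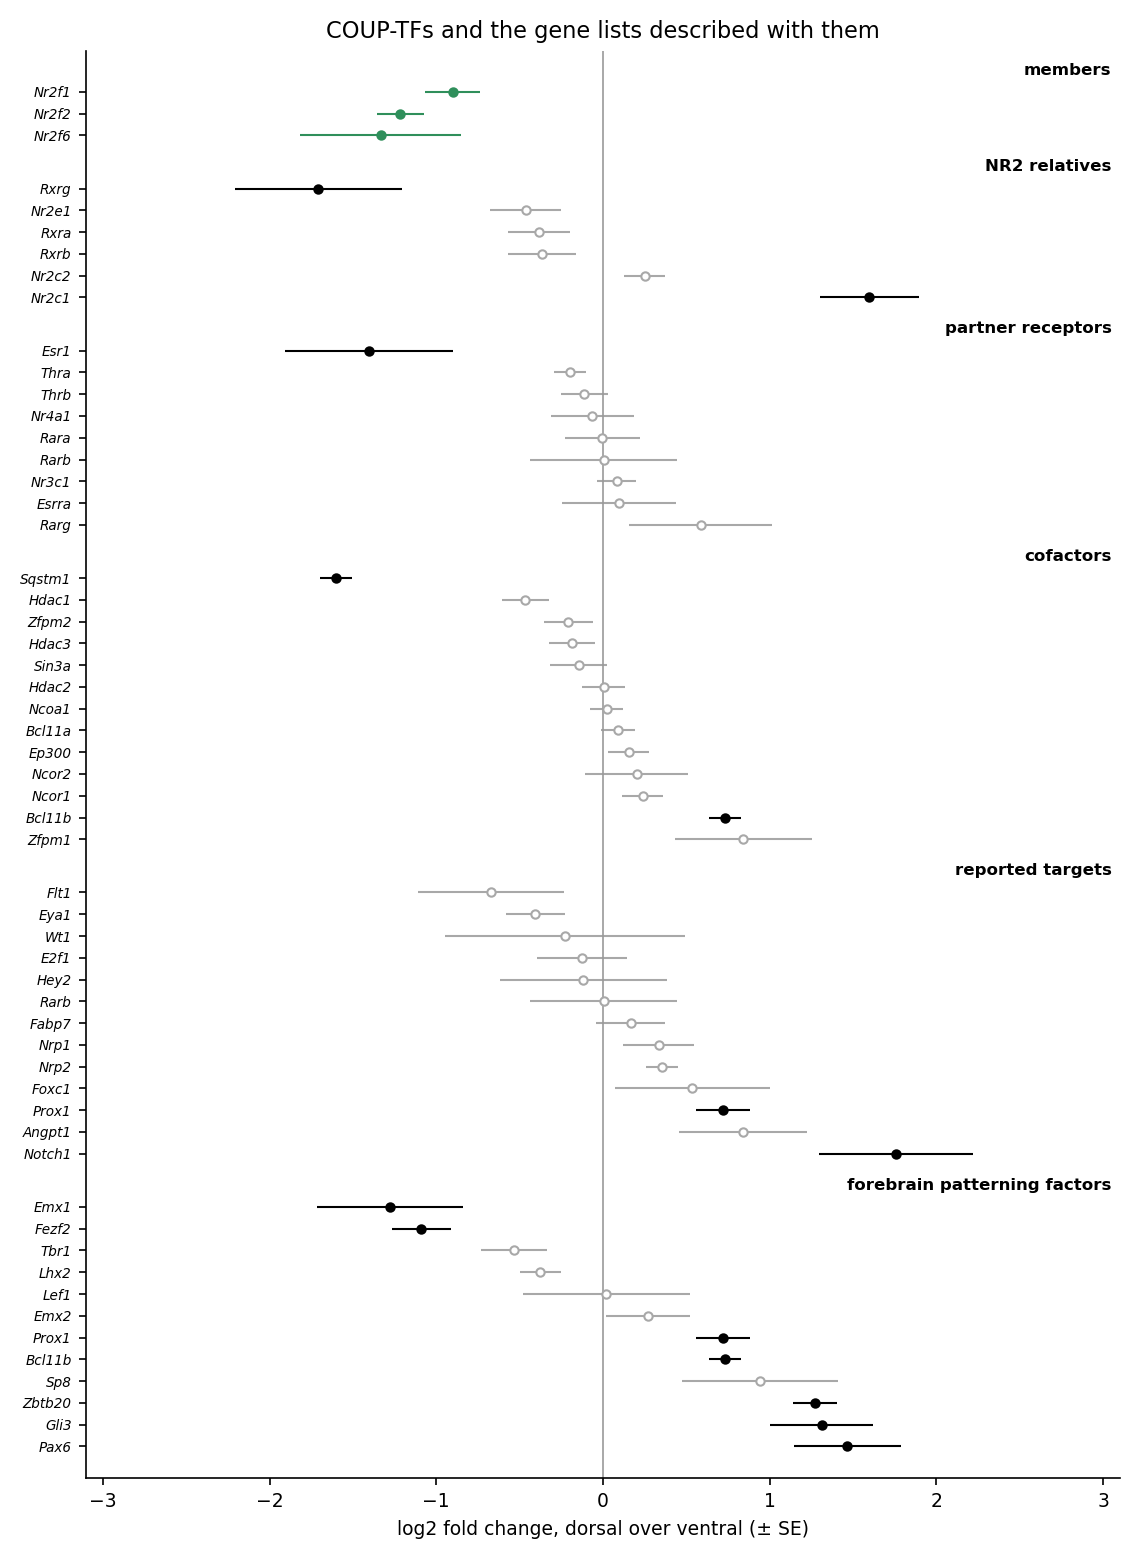
Log2 fold change, dorsal over ventral, with SE for the 3 COUP-TFs (green, no test) and for tested genes of 5 lists, filled black where called and open grey where not. Nr2f1 and Nr2f2 lie at -0.90 and -1.22, and Sqstm1 (-1.60) and Zbtb20 (1.27) are far out on either side with small errors.

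The members' neighbours in the genome were followed out to 100 kb. Of 22 annotated genes that overlap a member or start within that distance, 20 had a count and 11 were tested. Of these 1 was called, ventral-higher, as were 9.85% of all tested genes. It was Mrpl34 near Nr2f6, which rose on the ventral side from 12.2 ± 3.60 to 22.4 ± 4.89 CPM (edgeR with Benjamini-Hochberg adjusted p = 0.0109). Around Nr2f1 and Nr2f2 the other annotated genes are long noncoding RNAs, pseudogenes and other loci without a known protein, and none but the antisense gene A830082K12Rik exceeded a mean of 1.26 CPM. Near Nr2f1 these were C130051F05Rik (0.182 and 0.814 CPM in dorsal and ventral libraries), Gm18990, Gm38604, 3110006O06Rik, Gm5042, Gm46387 and Gm3963. Near Nr2f2 they were Gm29683 (0.653 and 1.26 CPM), Gm44946, Gm44532 and B130024G19Rik.

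A830082K12Rik starts 1740 bases from Nr2f1 on the other strand. Its CPM was 41.8, 46.2, 24.6, 32.4 and 26.9 in Dorsal replicates 1 to 5 and 32.7, 30.7, 22.6, 22.6 and 26.1 in Ventral replicates 1 to 5. The groups overlapped, with a log2 fold change of 0.34 (SE 0.191, edgeR with Benjamini-Hochberg adjusted p = 0.179). B130024G19Rik, opposite Nr2f2, was at 0.492 ± 0.628 and 0.793 ± 0.506 CPM. Ocel1, opposite Nr2f6, was at 2.63 ± 0.765 and 1.78 ± 0.754 CPM (log2 fold change 0.53, SE 0.367, edgeR with Benjamini-Hochberg adjusted p = 0.283). Of the other neighbours of Nr2f6, Abhd8 was at 54.1 ± 21.1 and 84.8 ± 16.5 CPM, Use1, Dda1 and Babam1 lay between 25.2 and 38.6 CPM on average in both groups, and Ushbp1 and Ankle1 were below 1 CPM.

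The bases before the RefSeq starts of the members were also searched for motifs. The 250 bases upstream of the RefSeq start of Nr2f2 are printed, on the minus strand of GRCm38.p6 at chr7:70366747-70366996, with CCAAT boxes in capitals (ATTGG where the box is on the plus strand). An exon of B130024G19Rik overlaps this window.
Nr2f2: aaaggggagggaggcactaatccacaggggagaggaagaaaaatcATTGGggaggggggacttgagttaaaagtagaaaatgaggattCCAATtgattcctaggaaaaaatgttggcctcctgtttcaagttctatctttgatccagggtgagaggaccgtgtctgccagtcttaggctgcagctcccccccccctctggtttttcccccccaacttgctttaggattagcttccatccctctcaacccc

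This window of Nr2f2 has 50.0% GC, below the median of 52.4% over 32817 such windows, and holds 2 CCAAT boxes, a motif found in 33.8% of windows. The windows of both annotated starts of Nr2f1 (72.0% and 39.6% GC) and that of Nr2f6 (82.4% GC) lie partly or wholly in annotated exons of their own gene and are not printed. GGGCGG, the GC box, occurs 7 times in that of Nr2f6, 1 time in 1 of those of Nr2f1 and not in that of Nr2f2, and in 32.7% of all windows on either strand. AGGTCA, the motif whose repeats COUP-TFs bind, is in none of the members' windows and in 14.0% of all windows. These motifs were searched on both strands and do not overlap one another in the printed window. A match or its absence describes the letters of the window and no more.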

How the data were processed

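RNA from each pool was amplified with the Ovation kit, made into TruSeq libraries and sequenced as 50 bp paired ends. By the submitters' processing notes, the authors aligned the reads to GRCm38 with STAR 2.5.2b and counted them with HTSeq 0.7.2; what they deposited are raw counts for each Ensembl gene, neither normalized nor filtered. The annotation release and the strand setting are not given in the sources used here. GENCODE M21 matched 54723 of 54838 identifiers and gave symbols, exons and lengths.

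The analysis ran in edgeR 4.0.16 under R 4.3.3. A gene needed a CPM above 1, before scaling, in 2 or more libraries. Libraries were then scaled by TMM, and dorsal was compared with ventral by the quasi-likelihood test over all genes with Benjamini-Hochberg adjustment. Calls required an adjusted p under 0.05 and a difference of mean CPM plus 1 over 0.58 on the log2 scale. SEs were taken from the fold change and its F statistic. The test was checked on simulated data. Levels between genes are CPM per kilobase of the union of exons. Coding sequences were aligned with Biopython 1.88.

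The members and the gene lists were chosen with earlier results of these data known. Genes named are the members, each list's called genes and otherwise up to 4 of its most abundant, neighbours within 100 kb, and for each member the 5 nearest genes by Pearson r over all libraries and the 5 nearest within groups; some genes of the forebrain patterning list are counted but not reported here. Both groups drew on the same mice, but nothing says that equal replicate numbers share them. The test took the libraries as unpaired, so p-values measure the spread between pools. Libraries held 11138676 to 20594364 counts on genes, and no pair within a group was alike enough to be one library deposited again (lowest chi-square over its degrees of freedom 4.36). Alternatives were other scaling factors (DESeq2 1.42.0, upper quartile, none), other filters, tests and thresholds, GC and length offsets (mgcv 1.9.3), the replicate block, gene subsets, other lengths and each library left out. Levels relative to marker sums, unshared exonic length and the dispersions of edgeR 3 were added after seeing the data.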

Additional observations from a re-analysis of the deposited data

Results flagged for a closer look

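Esr1 in Ventral replicate 3 stood apart from its group. It had 30.1 CPM there, while the other 4 Ventral libraries had 5.28 to 10.6 CPM, and its gap to the nearest of them took up 0.785 of the range of the group, above the critical value of 0.71 for 5 samples. It was the 1 value past this limit among 44 groups of 5 libraries examined (the members, their ratios, the called genes of the lists and the genes that overlap a member), where chance gives about 1 in 20 groups. No library of Nr2f1, Nr2f2 or Nr2f6 passed it. Without this library the log2 fold change of Esr1 was -0.88 and the gene was no longer called (edgeR with Benjamini-Hochberg adjusted p = 0.0826).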

How the results depend on the processing

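The log2 fold changes of Nr2f1, Nr2f2 and Nr2f6 kept their sign under every alternative that gave a value; they were described, not tested. Nr2f6 dropped out of the fit under the stricter filter and without Ventral replicate 4 or 5. Of the main results under alternatives, 257 values stayed within the spread of replicates or within 1.5 times the count and 16 did not. These were the genes called dorsal-higher and ventral-higher at an adjusted p below 0.01 (1498 and 897), the dorsal-higher ones among protein-coding genes alone (1665), and levels per kilobase under other lengths, which shift both groups alike. With the longest transcript the dorsal and ventral levels were 41.2 and 76.7 CPM per kilobase for Nr2f1 and 33.3 and 77.2 for Nr2f2, so that the ventral levels of the pair came out alike, and the dorsal level of Nr2f6 was 0.218. With coding length they were 104 and 193 for Nr2f1, 109 and 254 for Nr2f2, and 0.389 and 0.911 for Nr2f6. With exonic length outside other genes, chosen after seeing the data, Nr2f6 was at 0.355 and 0.832.

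The replicate block gave 2656 dorsal-higher and 1674 ventral-higher genes against 2636 and 1655 without it, with log2 fold changes of -0.88 for Nr2f1, -1.21 for Nr2f2 and -1.24 for Nr2f6. Of the 13 list genes it removed the call of Esr1 alone (edgeR with Benjamini-Hochberg adjusted p = 0.0647). Deviations of same-numbered libraries correlated at -0.032 to 0.069, so the numbers were not taken to pair the pools. The dispersions of edgeR 3, added after seeing the data, gave 2217 and 1408 genes and removed the call of Emx1 (Benjamini-Hochberg adjusted p = 0.0537), and the stricter filter removed that of Esr1 (0.0507). Leaving out 1 library at a time, the calls ranged from 2105 to 2670 and from 1216 to 1815. Depth limits Nr2f6, which had 4 to 46 counts in a library.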
